A study of Mus musculus with 4 samples.

Results

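Skeletal muscle genes were followed here through 10 members: Actc1, Acta1, Myog, Des, Tnnt1, Tnnt3, Tnnc1, Tnnc2, Mylpf and Myl1. They were taken by gene symbol from the table of counts, and all 10 were found among its 15887 genes, each with 1 row. No member had 0 counts in any library, and no member shared its counts with another gene, although 915 other genes had the counts of some further gene throughout.

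The counts came from cap analysis of gene expression (CAGE), in which only the capped 5′ end of each RNA is read, so that counts do not grow with the length of a transcript and levels can be compared between genes. There were 4 libraries of cultured tooth germs of ICR mice, 1 for each combination of temperature and drug. They are named 37°C_DMSO and 37°C_CPA for the warm cultures and 25°C_DMSO and 25°C_CPA for the cold ones, and values said to be in library order follow that sequence. Each library pooled several germs of mandibular first molars. CPA is cyclophosphamide, an alkylating anticancer drug, and DMSO is its solvent, given to the controls. The sources differ on the culture: the labels give embryonic day 14.5 as the stage but an earlier day for dissection, the CPA dose is 2.5 mM in the series' design text and 0.25 mM in the sample records, and the sample records add 4 days without CPA to the 3 days of treatment, while the methods describe RNA taken after the 3 days. The cultured organ is a model limited to what the dissection carried along. It has no blood flow and no nerve supply.

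Skeletal muscle forms when myoblasts leave the cell cycle, fuse and assemble sarcomeres, in which myosin thick filaments pull on actin thin filaments. Transcription factors of the MyoD family, among them myogenin (Myog), start this programme by binding E-boxes in the promoters of muscle genes. Many sarcomere proteins have a form that embryonic or slow fibres favour and another that mature or fast fibres favour, and the alpha-actin of early muscle, cardiac actin (Actc1), later gives way to skeletal actin (Acta1). The tooth itself contains no skeletal muscle, but jaw and tongue muscles form beside the mandibular molars. Several members are not particular to skeletal muscle: Actc1 and Tnnc1 are also genes of the heart, and Des is also expressed in smooth and cardiac muscle.

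RefSeq promoter windows were matched by symbol for 9 of the 10 members, the exception being Tnnt3. The 4 below are shown because the actins of the pair parted most between the temperatures, Myog encodes the regulator, and Mylpf had the smallest fold difference with CPA at 37 °C. Each is the 250 bases before the annotated start, 5′ to 3′ on the gene's strand, build GRCm38.p6. Capitals mark E-boxes (CANNTG) and CArG boxes, the site of serum response factor (CC, then 6 bases that are each A or T, then GG). The lines are Actc1 at chr2:114052876-114053125 on the minus strand, Acta1 at chr8:123894776-123895025 on the minus strand, Myog at chr1:134289754-134290003 on the plus strand and Mylpf at chr7:127211358-127211607 on the plus strand.
Actc1: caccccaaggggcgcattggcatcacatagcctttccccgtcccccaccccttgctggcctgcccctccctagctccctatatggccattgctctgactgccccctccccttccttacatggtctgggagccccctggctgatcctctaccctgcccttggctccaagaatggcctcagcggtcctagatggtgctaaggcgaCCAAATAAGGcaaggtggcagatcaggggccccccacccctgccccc
Acta1: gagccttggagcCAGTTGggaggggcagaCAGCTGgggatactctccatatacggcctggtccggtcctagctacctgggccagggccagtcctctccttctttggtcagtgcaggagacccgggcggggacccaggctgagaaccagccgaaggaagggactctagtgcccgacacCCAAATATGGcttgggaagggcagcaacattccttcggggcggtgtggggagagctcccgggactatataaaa
Myog: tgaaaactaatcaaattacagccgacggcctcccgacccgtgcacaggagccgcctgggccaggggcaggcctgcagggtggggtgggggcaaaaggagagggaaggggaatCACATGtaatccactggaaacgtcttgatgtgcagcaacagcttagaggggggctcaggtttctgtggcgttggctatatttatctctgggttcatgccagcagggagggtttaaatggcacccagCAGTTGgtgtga
Mylpf: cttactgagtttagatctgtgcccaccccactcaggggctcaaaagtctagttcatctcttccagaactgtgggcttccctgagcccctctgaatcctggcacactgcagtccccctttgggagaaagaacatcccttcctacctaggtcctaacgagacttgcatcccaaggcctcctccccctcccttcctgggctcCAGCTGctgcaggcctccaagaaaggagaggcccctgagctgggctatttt

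Both strands were searched in the 250-base windows, and the background is the share of all 32851 RefSeq windows of that length with a match. A CArG box was found in 2 of the 9 members, in Actc1 from -47 to -38 and in Acta1 from -73 to -64 relative to the start, against 1.47% of all windows. E-boxes (CANNTG) were found in 8 of the 9, all but Actc1, against 66.2% of all windows, and the form CAGCTG, which is contained in CANNTG, in 4 of the 9 (Acta1, Des, Mylpf and Myl1) against 13.0%. TATAAA was found in 3 of the 9 (Acta1, Tnnt1 and Myl1) against 12.4%. It lies from -30 to -25 in Tnnt1, from -7 to -2 in Acta1 and, on the other strand, from -95 to -90 in Myl1. Position was not part of the search, so these are not shown to be TATA boxes. A full match to the usual degenerate consensus of the MEF2 site was found in 0 of the 9 and in 2.92% of all windows. Sequences that depart from this consensus were not counted, so the 0 does not show that these promoters lack a MEF2 site. These matches describe letters in a window and do not show that a factor binds there.

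On mm9, the build of the authors' alignment, the members lie on 5 chromosomes. Myl1 (chr1:66970869-66991978), Des (chr1:75356904-75365154) and Myog (chr1:136186581-136189124) are on chromosome 1, Actc1 (chr2:113873018-113879284) and Tnnc2 (chr2:164602661-164605467) on chromosome 2, and Tnnt1 (chr7:4456172-4467984), Mylpf (chr7:134355122-134357812) and Tnnt3 (chr7:149684741-149701914) on chromosome 7. Acta1 is at chr8:126415669-126418651 and Tnnc1 at chr14:31983021-32024915. All 10 are annotated as protein-coding. The Tnnc1 row is the least certain, because its annotated gene starts 5′ of and contains a shorter Tnnc1 gene on the same strand (chr14:32021498-32024915) and overlaps Nisch on the other strand, so some of its counts may come from starts other than the usual Tnnc1 promoter. Actc1, Acta1, Des, Tnnt3 and Tnnc2 overlap annotated genes on the opposite strand only. The coding sequences of Actc1 and Acta1 are 86.2% identical, whereas their first 50 annotated bases, compared position by position, match at 20, so tags from the annotated starts of these paralogs differ.

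The libraries held 16449264 (37°C_DMSO), 15255885 (37°C_CPA), 15101186 (25°C_DMSO) and 15297204 (25°C_CPA) counts, the highest 1.09 times the lowest, and 3 counts correspond to 0.182 to 0.199 CPM (counts scaled to a library total of 1000000). Markers of the labelled tissue were present throughout, as all 16 genes of dental epithelium and dental mesenchyme had at least 128 counts in every library. Folds below are ratios of counts scaled by TMM factors (trimmed mean of M values). Genes with 50 counts or more in the higher of the compared libraries are termed measured, and those of them that differed 2-fold or more are termed called. All 95% intervals hold counting error alone, because they were computed from the counts of single libraries. Tags carried no molecular identifiers, and the intervals treat each tag as a separate count. Because there were no replicates, differences between libraries were not tested and p-values are not given. Without scaling, the share of called genes that were higher moved from 60.0% to 43.0% with CPA at 37 °C and from 35.7% to 20.6% for 25°C_DMSO over 37°C_DMSO. With scaling to Gapdh, which rests on 117 to 215 counts, it moved to 72.2% for 25°C_DMSO over 37°C_DMSO, from 54.5% to 89.7% with CPA at 25 °C and from 36.6% to 85.4% for 25°C_CPA over 37°C_CPA. Over all genes the median log2 fold shifted by -0.11 and -0.21 in the first 2 of these comparisons without scaling. With Gapdh scaling it shifted by 0.43 for 25°C_DMSO over 37°C_DMSO, 0.28 with CPA at 25 °C and 0.66 for 25°C_CPA over 37°C_CPA.

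The members were transcripts of low to moderate abundance. Summed over the 10, they had 2151, 881, 944 and 1342 counts in library order. In CPM these are 130.8 (95% Poisson interval 125.3 to 136.4), 57.7 (54.0 to 61.7), 62.5 (58.6 to 66.6) and 87.7 (83.1 to 92.6). The summed level was thus highest in 37°C_DMSO and lowest in 37°C_CPA, whose interval overlaps that of 25°C_DMSO. In these bulk libraries, fewer muscle cells and less muscle RNA per cell cannot be told apart. By TMM-scaled level, 7 members were highest in 37°C_DMSO and 3 (Myog, Mylpf and Myl1) in 25°C_CPA, while 6 were lowest in 37°C_CPA, 3 (Acta1, Des and Tnnc2) in 25°C_DMSO and 1 (Tnnt3) in 25°C_CPA. By raw counts, 9 were highest in 37°C_DMSO and 1 in 25°C_CPA. Myog (201 and 199 counts) and Myl1 (95 and 91) had overlapping intervals in these libraries, as had Tnnt3 (17 and 16) in the 25 °C libraries.

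**Figure D1:**
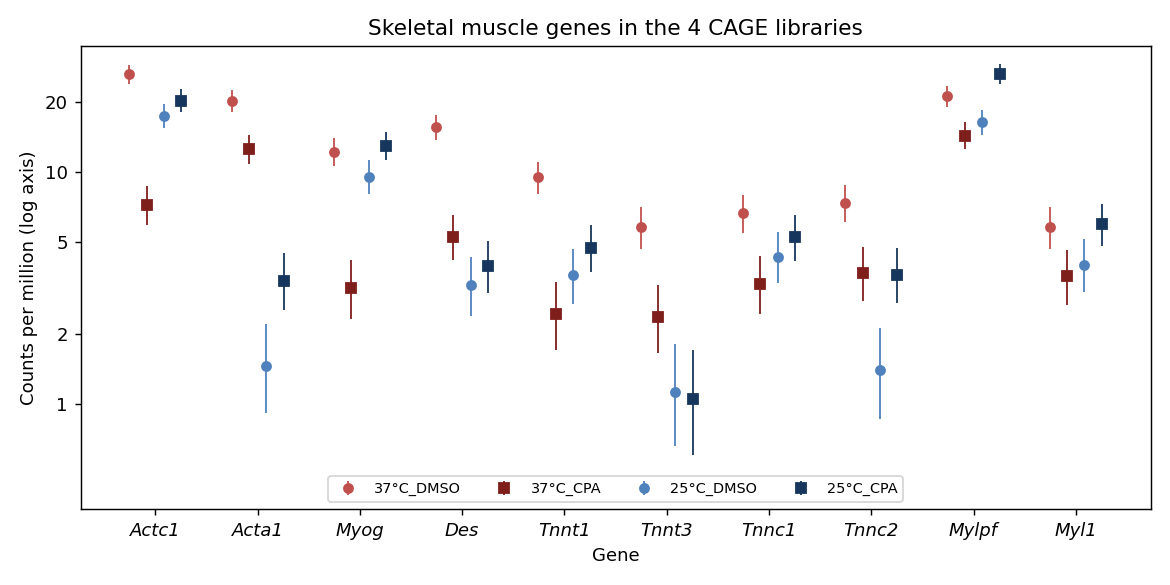
Level of each skeletal muscle gene in each of the 4 libraries, in CPM on a log axis. Each point is 1 library and each bar a 95% Poisson interval of its count; Acta1 is at 1.46 CPM in 25°C_DMSO, while Mylpf is between 14.4 and 26.5 CPM in all 4 libraries.

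In 37°C_DMSO the order of levels ran from Actc1 at 26.4 CPM through Mylpf (21.2), Acta1 (20.3), Des (15.6), Myog (12.2), Tnnt1 (9.48), Tnnc2 (7.36) and Tnnc1 (6.63) to Tnnt3 and Myl1, both at 5.78 CPM. Neighbours in this order had overlapping counting intervals, except at the steps from Actc1 to Mylpf and from Acta1 to Des. In 37°C_CPA Mylpf (14.4 CPM) and Acta1 (12.5) led with overlapping intervals, clear of Actc1 (7.21), and no later step down to Tnnt3 (2.36) was clear. In 25°C_DMSO Actc1 (17.5) and Mylpf (16.4) led, Myog (9.54) followed clear of both sides, and Acta1 (1.46), Tnnc2 (1.39) and Tnnt3 (1.13) formed the low end, clear of Des (3.24). In 25°C_CPA Mylpf (26.5), Actc1 (20.3) and Myog (13.0) each stood clear of the next, and Tnnt3 (1.05) stood clear below Acta1 (3.40). Acta1 was thus among the leading members at 37 °C and among the lowest at 25 °C, whereas Myog came next after Mylpf and Actc1 in both 25 °C libraries.

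The first comparison asked what CPA did to muscle transcripts at the usual culture temperature. In 37°C_CPA all 10 members had lower scaled counts than in 37°C_DMSO, under TMM, no scaling, DESeq2 size factors and Gapdh scaling alike, and with TMM the counting interval lay below 1 for each of them. Of the 10 measured, 6 were called lower and 0 higher, with 4 not called, and the median log2 fold was -1.15. Over all 13285 measured genes 1.6% were called lower, 2.39% higher and 3.99% in either direction, and the median log2 fold was -0.02. Without scaling 7 were called lower and with Gapdh scaling 5, and with a minimum of 200 counts in the higher library, which only some members reach, 3 were.

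Myog, the myogenic regulator, had 201, 48, 144 and 199 counts in library order. The 37°C_CPA library stands alone at the low end. Myog was 3.87-fold lower with CPA at 37 °C (95% interval 2.81 to 5.41).

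Actc1, the alpha-actin that early skeletal muscle shares with the heart, had 434, 110, 264 and 311 counts in library order. Again 37°C_CPA was far below the other libraries, and Actc1 was 3.64-fold lower with CPA at 37 °C (95% interval 2.95 to 4.53). Acta1, the alpha-actin of mature skeletal muscle, had 334, 191, 22 and 52 counts in library order, so that for this gene both 25 °C libraries were below both 37 °C libraries. With CPA at 37 °C its fold was 0.619 (95% interval 0.516 to 0.742) and it was not called. The plot of levels by library shows this crossing of the paired actins.

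Des, which encodes the intermediate filament desmin that ties myofibrils together at the Z disc, had 257, 80, 49 and 60 counts in library order. It was high in 37°C_DMSO alone, and it was 2.97-fold lower with CPA at 37 °C (95% interval 2.30 to 3.86).

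Among the troponins, which place calcium control on the thin filament, troponin T anchors the complex to tropomyosin and troponin C binds calcium. Tnnt1, the slow troponin T, had 156, 37, 54 and 72 counts in library order, and it was 3.89-fold lower with CPA at 37 °C (95% interval 2.71 to 5.73). Tnnt3, the fast troponin T, had 95, 36, 17 and 16 counts and was 2.44-fold lower (95% interval 1.64 to 3.68). Tnnt1 thus had the largest fold among the members with CPA at 37 °C, but its interval overlaps those of Myog, Actc1, Des, Tnnt3, Tnnc1 and Tnnc2.
Tnnc1, the slow and cardiac troponin C, had 109, 50, 65 and 80 counts in library order and was 2.01-fold lower (95% interval 1.43 to 2.87). Tnnc2, the fast troponin C, had 121, 56, 21 and 55 counts, and its fold of 0.501 (95% interval 0.358 to 0.693) fell just short of the call. The call separates this pair, but the folds differ by far less than their counting error.

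The myosin light chains were among the 4 members not called with CPA at 37 °C. Mylpf, the phosphorylatable regulatory light chain of fast muscle, had 349, 219, 248 and 406 counts in library order, with a fold of 0.680 for CPA at 37 °C (95% interval 0.571 to 0.807). Myl1, the alkali light chain of fast muscle, had 95, 54, 60 and 91 counts and a fold of 0.616 (95% interval 0.432 to 0.869). Both were lowest in 37°C_CPA and highest in 25°C_CPA by scaled level, and neither was called at 37 °C. For both, the CPM interval in 37°C_CPA overlaps that in 25°C_DMSO, and for Myl1 that in 25°C_CPA overlaps that in 37°C_DMSO.

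**Figure D2:**
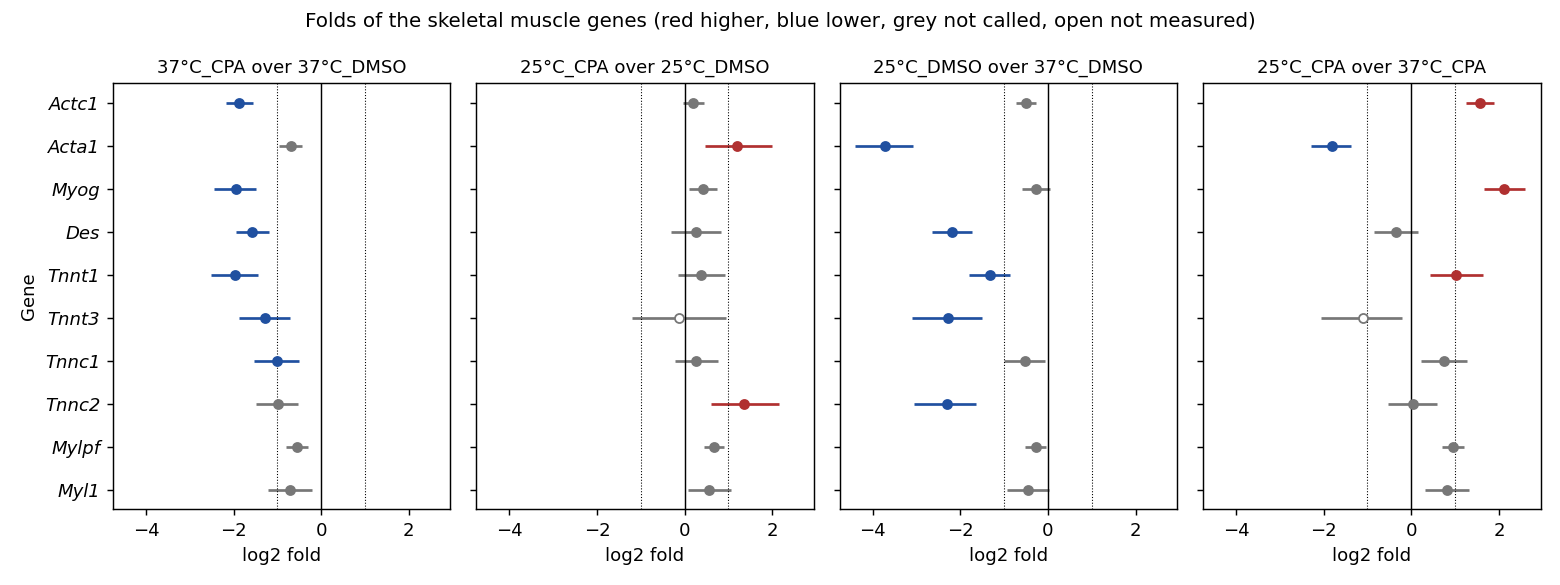
log2 folds of the 10 genes in the 4 comparisons, with 95% counting intervals as bars and dotted lines at 2-fold. With CPA at 37 °C all 10 points lie to the left of 0 and 6 are called lower, whereas with CPA at 25 °C 9 of 10 lie to the right and 2 are called higher.

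With CPA at 25 °C the members did not show lower levels as a group. In 25°C_CPA against 25°C_DMSO, 9 of the 10 had a fold above 1, and the exception was Tnnt3 (fold 0.917, 95% interval 0.434 to 1.93, on 17 and 16 counts), which turned above 1 with Gapdh scaling. Of the 9 measured members 2 were called higher and 0 lower, with 7 not called and a median log2 fold of 0.43. Over all 12682 measured genes 0.142% were called higher, 0.118% lower and 0.26% in either direction, and the median was 0.00. The 2 calls were Acta1, at 2.30-fold (95% interval 1.37 to 3.98), from 22 to 52 counts, and Tnnc2, at 2.55-fold (95% interval 1.52 to 4.44), from 21 to 55 counts. Both rest on low counts. Neither was called where the interval had to lie beyond 2-fold, and 1 of them was called when 10 counts were added to each library. Mylpf, Myl1 and Myog had folds of 1.60 (95% interval 1.36 to 1.88), 1.48 (1.06 to 2.08) and 1.35 (1.08 to 1.68), below the call. For Actc1, Des, Tnnt1 and Tnnc1 the folds were 1.15 to 1.30 and the intervals held 1.

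The ratio of the CPA fold at 25 °C to that at 37 °C was above 1 for all 10 members, from 2.23 for Tnnt3 (95% counting interval 1.02 to 4.89) to 5.21 for Myog (3.56 to 7.62), with a median of 3.63. The interval lay above 1 for all 10, under TMM, no scaling, DESeq2 size factors and Gapdh scaling. Over all 13661 genes with at least 50 counts in their highest library, 21% had an interval above 1 and 20.1% had one below 1, the median ratio was 1.01, and 1.62% of genes had a ratio as high as that of Tnnt3 or higher. Next to Myog stood Tnnc2 at 5.09 (2.81 to 9.22), Tnnt1 at 5.06 (3.06 to 8.36) and Actc1 at 4.18 (3.21 to 5.46), whose intervals overlap. The lowest after Tnnt3 were Mylpf at 2.35 (1.86 to 2.96), Myl1 at 2.40 (1.51 to 3.83) and Tnnc1 at 2.41 (1.51 to 3.86). These intervals hold counting error alone, and the difference between the temperatures was not tested, since each condition has 1 library.

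Lower temperature without the drug divided the members by the size of the difference, as all 10 had TMM-scaled folds below 1. In 25°C_DMSO against 37°C_DMSO 5 of 10 measured members were called lower, 0 higher and 5 were not called (median log2 fold -0.93). Over all 13469 measured genes 11.6% were called lower, 6.42% higher and 18% in either direction, with a median of -0.01. Both this comparison and that of CPA at 37 °C are ratios to the single 37°C_DMSO library. Acta1 was 13.1-fold lower (95% interval 8.51 to 21.2), Tnnc2 4.97-fold (3.11 to 8.32), Tnnt3 4.82-fold (2.86 to 8.62), Des 4.53-fold (3.32 to 6.28) and Tnnt1 2.49-fold lower (1.82 to 3.46). Acta1 had the largest fold, and its interval overlaps that of Tnnt3 alone.
The other members had folds between 0.691 for Tnnc1 (95% interval 0.50 to 0.948) and 0.830 for Myog (0.666 to 1.03), with Actc1 at 0.705 (0.603 to 0.823), Myl1 at 0.732 (0.521 to 1.02) and Mylpf at 0.824 (0.697 to 0.972). For Myog and Mylpf the direction turned with Gapdh scaling, which moved the median of all genes by 0.43 on the log2 scale, so no direction is given for them. The members on either side of the call were Tnnt1, at a fold of 0.401, and Tnnc1, at 0.691, and their intervals overlap. Summed over the 5 members called lower, the level was 19.6% of that in 37°C_DMSO, and over the other 5 it was 76.2%. These groups were formed from these values, so the contrast between them is a description. In 37°C_CPA the same groups stood at 45.0% and 43.8%.

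In the cold with CPA, the members differed in direction. In 25°C_CPA against 37°C_CPA, 3 of 9 measured members were called higher and 1 lower, with 5 not called (median log2 fold 0.81). Over all 13321 measured genes 6.31% were called higher, 10.9% lower and 17.2% in either direction, with a median of 0.00. Myog was 4.32-fold higher (95% interval 3.14 to 6.06), Actc1 2.95-fold higher (2.36 to 3.70) and Tnnt1 2.03-fold higher (1.35 to 3.10), while Acta1 was 3.52-fold lower (2.58 to 4.88). Tnnt3, with 36 and 16 counts, was not measured here. Des had a fold of 0.782 (0.550 to 1.11), which turned above 1 with Gapdh scaling, and Tnnc2 a fold of 1.02 (0.693 to 1.51), which turned below 1 without scaling. With Gapdh scaling 6 members were called higher. Without scaling, with 10 counts added, or where the interval had to lie beyond 2-fold, 2 were, and the fold of Tnnt1 was then 1.95 without scaling and 1.82 with 10 counts added. Set against 37°C_DMSO, Myog in 25°C_CPA stood at 111.8% of its level there, Actc1 at 80.9%, Des at 26.4% and Acta1 at 17.6%.

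Pairs of related proteins were next compared within each library, where no scaling is needed. Actc1 made up 56.5% of the summed Actc1 and Acta1 counts in 37°C_DMSO (95% Clopper-Pearson interval 52.9 to 60.1%) and 36.5% in 37°C_CPA (31.1 to 42.3%). At 25 °C it made up 92.3% with DMSO (88.6 to 95.1%) and 85.7% with CPA (81.6 to 89.1%). Actc1 was the more abundant of the pair in every library except 37°C_CPA. The intervals of the 25 °C libraries overlap each other and neither overlaps an interval at 37 °C. The 37 °C intervals do not overlap each other either, so at 37 °C the actin mix with CPA differed from that with DMSO by more than counting error.
Tnnc1 took 47.4% (40.8 to 54.1%), 47.2% (37.4 to 57.1%), 75.6% (65.1 to 84.2%) and 59.3% (50.5 to 67.6%) of the Tnnc1 and Tnnc2 counts in library order. Of these, only 25°C_DMSO lies clear of both 37 °C libraries, while the interval of 25°C_CPA overlaps all 3 others. Tnnt1 took 62.2% (55.8 to 68.2%), 50.7% (38.7 to 62.6%), 76.1% (64.5 to 85.4%) and 81.8% (72.2 to 89.2%) of the Tnnt1 and Tnnt3 counts in library order. The interval of 25°C_CPA lies clear of both 37 °C libraries, whereas that of 25°C_DMSO overlaps the interval of 37°C_DMSO. In all 3 pairs the point value of the embryonic or slow form was higher in each 25 °C library than in either 37 °C library.

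**Figure D3:**
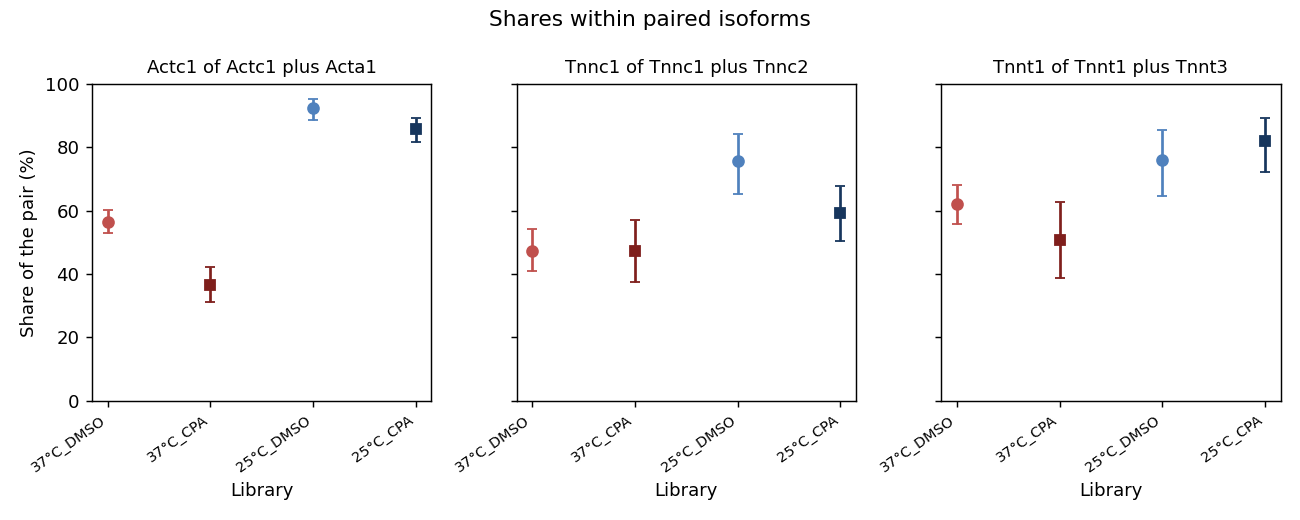
Share of the first gene in each of the 3 pairs (y axis, percent of the summed counts of the pair) in the 4 libraries (x axis). Points are single libraries with 95% Clopper-Pearson intervals; the Actc1 share is 36.5% in 37°C_CPA and 92.3% in 25°C_DMSO.

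Within the summed counts of the 10 members, the mix also differed between libraries. Mylpf made up 16.2%, 24.9%, 26.3% and 30.3% of the sum in library order. Myog made up 9.34%, 5.45%, 15.3% and 14.8% in library order, lowest in 37°C_CPA and with intervals there (4.04 to 7.16%) below those of the other libraries. Acta1 made up 15.5%, 21.7%, 2.33% and 3.87%. Actc1 was the most abundant member in both DMSO libraries, at 26.4 and 17.5 CPM, and Mylpf in both CPA libraries, at 14.4 and 26.5 CPM. The top rank is within counting error in 25°C_DMSO, where the intervals of Actc1 and Mylpf overlap, and in 37°C_CPA, where those of Mylpf and Acta1 do.

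Beyond the members, lists of other muscle genes were examined by role. They held 86 genes, of which 40 were in the table and 21 reached 50 counts with CPA at 37 °C. There 2 were called lower and 0 higher, with 19 not called and a median log2 fold of -0.16, against 1.6% and 2.39% of all measured genes. Mef2c, a factor that acts with the MyoD family and is also expressed in other lineages, was 2.58-fold lower (95% interval 2.12 to 3.16), from 380 to 136 counts. Tnni1, the slow troponin I, was 2.93-fold lower (95% interval 1.67 to 5.40), from 54 to 17 counts. Tpm1, Tpm2 and Tpm3, tropomyosins made by many cell types, had folds of 0.875, 0.969 and 0.934. Eno3, the muscle enolase, and Fabp3, a fatty acid binding protein of muscle and heart, had folds of 0.528 and 0.557. In all, 16 of the 21 had folds below 1 and 5 had folds above 1, the highest of these being Srl, a calcium-binding protein of the sarcoplasmic reticulum, with 132 and 140 counts and a fold of 1.15 (95% interval 0.899 to 1.47). Jph2, a junctophilin that couples calcium channels in muscle, had 52 and 53 counts and a fold of 1.10 (0.739 to 1.65), and Ncam1, an adhesion molecule of myoblasts and many other cells, a fold of 1.04 (0.932 to 1.15).
The more muscle-restricted regulators had few counts. Myod1, the founding factor of the family, had 34, 7, 24 and 35 counts in library order, under the minimum in every comparison, and its ratio with CPA at 37 °C was 0.223 (95% interval 0.0834 to 0.511). Mymx, a micropeptide that fuses myoblasts, had 34, 5, 35 and 69 counts, with a ratio of 0.159 (0.0486 to 0.409) with CPA at 37 °C and of 1.92 (1.26 to 2.97) with CPA at 25 °C. Myh3, the embryonic myosin heavy chain, had 48, 15, 22 and 26 counts. By scaled level Myod1 and Mymx, like Myog, were lowest in 37°C_CPA and highest in 25°C_CPA. For Myod1 and Myog, however, the counts in 25°C_CPA (35 and 199) were nearly those in 37°C_DMSO (34 and 201). Other genes of these lists with few counts were highest in 37°C_DMSO. Cdh15 had 24, 5, 5 and 6 counts in library order, Itga7 45, 17, 15 and 10, and Tnni2 21, 5, 4 and 4. Myf5, Myf6, Myh8 and Ckm had no row in the table used here and so were not analysed.

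With CPA at 25 °C none of 20 measured genes of these lists was called (median log2 fold 0.05). In 25°C_DMSO against 37°C_DMSO 3 of 21 were lower and 1 was higher, with a median of -0.30. With 11.6% of all measured genes lower and 6.42% higher, these shares are near the background and are no result about the lists, so the genes are given as values only. The 3 were Jph2, which went from 52 to 6 counts, Eno3, which went from 78 to 13 counts, and Tnni1, which went from 54 to 19. The exception in the other direction was Myl4, the light chain of embryonic muscle and the atria, with 88, 75, 394 and 449 counts in library order. Myl4 was 5.19-fold higher in 25°C_DMSO than in 37°C_DMSO (95% interval 4.11 to 6.62) and 6.24-fold higher in 25°C_CPA than in 37°C_CPA (4.88 to 8.08), against the direction of the members called at 25 °C without drug. Myl4 is also transcribed in erythroid cells, and Hbb-y, an embryonic globin gene chosen after its values were seen, had 82, 138, 1542 and 1068 counts. Their part in the Myl4 level was not tested. In 25°C_CPA against 37°C_CPA 4 of 21 were higher and 1 was lower (median 0.15), against 6.31% and 10.9% of all measured genes. The 4 were Mymx, at 14.4-fold (95% interval 5.88 to 45.7), Chrna1, at 6.65-fold (3.13 to 16.2), Myl4 and Jph1, a junctophilin, at 2.58-fold (1.92 to 3.52). Jph2 was 8.47-fold lower (3.64 to 24.1). From 37°C_CPA to 25°C_CPA, Mymx went from 5 to 69 counts, Chrna1 from 8 to 51 and Jph2 from 53 to 6. These genes were thus measured here solely through the library where they were high. Mymx and Chrna1 were not measured with CPA at 37 °C, and Tnni1 and Eno3 were not measured here. The measured set therefore differs between comparisons, and these numbers are given as values only. Chrna1, the alpha subunit of the acetylcholine receptor at the neuromuscular junction, had 8, 8, 32 and 51 counts.

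Markers of other cell types moved in the same comparisons. Of the heart list, 3 of 10 genes were in the table, with summed counts of 66 to 147 per library, and Tnnt2, which embryonic skeletal muscle also expresses, was the only 1 measured. It was 2.13-fold lower with CPA at 37 °C (95% interval 1.45 to 3.19). Nppa, Nkx2-5 and Myh6, which define heart cells, had no row in the table used here and so were not analysed. Of 8 measured smooth muscle genes 0 were called with CPA at 37 °C (median log2 fold -0.30), and 5 were lower in 25°C_DMSO than in 37°C_DMSO (median -1.02), among them Actg2, the enteric smooth muscle actin, at 9.35-fold (95% interval 6.20 to 14.7), and Acta2, the vascular one, at 3.73-fold (3.48 to 4.01). Myh11, which marks mature smooth muscle, had 14, 5, 0 and 0 counts in library order, where a count of 0 allows up to 3. With CPA at 37 °C 4 of 7 measured osteoblast and odontoblast genes and 4 of 10 macrophage genes were lower, and 0 of 7 endothelial and 0 of 2 cartilage genes. In 25°C_DMSO these numbers were 6 of 7, 8 of 10, 3 of 7 and 1 of 2. Over all measured genes 1.6% were called lower with CPA at 37 °C and 11.6% in 25°C_DMSO over 37°C_DMSO. Summed levels in 37°C_CPA were 49.5% of 37°C_DMSO for the bone list, 69.6% for macrophages, 73.4% for endothelium, 80.3% for smooth muscle, 104.5% for dental epithelium and 86.7% for dental mesenchyme, against 44.4% for the 10 members. In 25°C_DMSO they were 19.02%, 15.3%, 52.7%, 38.5%, 83.8% and 120.4%, against 50.9%. Abundant genes weigh most in these sums, as Lyz2 held 8119 of the 14090 macrophage counts in 37°C_DMSO. With CPA at 37 °C, Ibsp of the bone list was 16.8-fold lower while Spp1 had a fold of 1.34. The median log2 folds with CPA at 37 °C were -1.01 for bone and -0.92 for macrophages, against -1.15 for the members. They were -0.51 for endothelium, -0.11 for dental epithelium and -0.18 for dental mesenchyme. The part of a differing amount of tissue around the germs in the muscle values was not tested.
From 25°C_DMSO to 25°C_CPA the summed level of the members went from 50.9% to 70.5% of 37°C_DMSO. Over the same step it went from 19.02% to 22.1% for bone, from 52.7% to 45.9% for endothelium and from 38.5% to 35.3% for smooth muscle, and it stood at 15.3% in both for macrophages. By median log2 fold over measured genes, the bone list (0.36 on 6 genes) was near the members (0.43). Within it Ibsp had a fold of 1.71 and Alpl one of 0.685. The medians were 0.06 for macrophages, -0.08 for smooth muscle and -0.23 for endothelium.

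**Figure D4:**
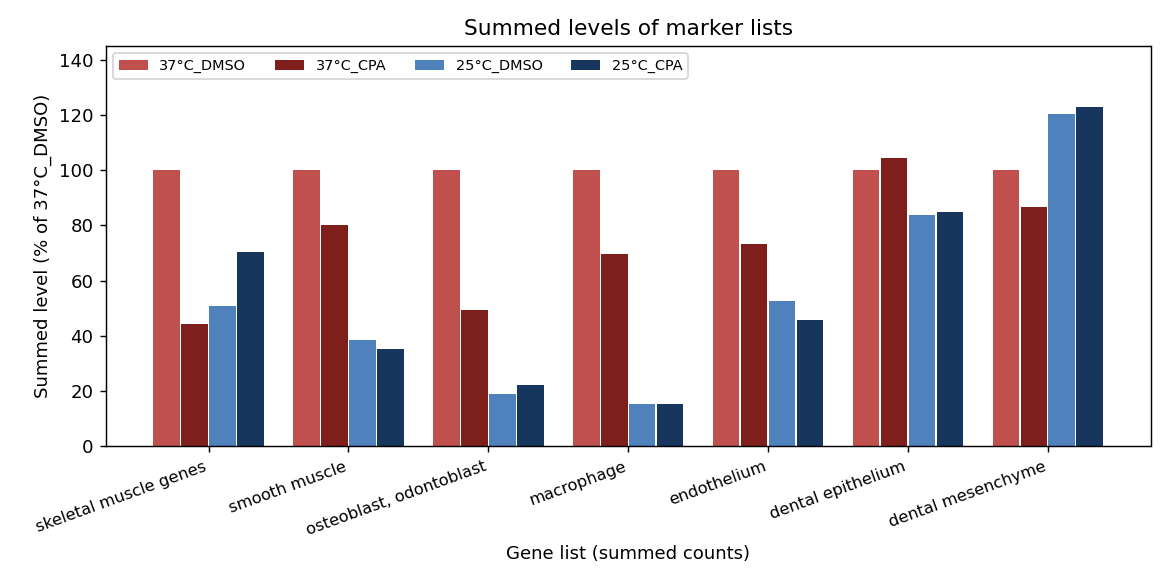
Summed TMM-scaled counts of 7 gene lists in each library as a percentage of the level in 37°C_DMSO (y axis from 0). Each bar is 1 library; the skeletal muscle genes stand at 44.4% in 37°C_CPA and at 70.5% in 25°C_CPA, while macrophage genes stand at 15.3% in both 25 °C libraries.

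Genes outside the lists were ranked by how close their pattern over the 4 libraries came to the median pattern of the members, as the root mean square distance of centred log2 levels. The 10 closest of 9386 genes were Six5, Kcnj8, Col3a1, Tmem100, Scd2, Gng4, Lrrc17, Adamts12, Foxe1 and Pth1r, at distances of 0.13 to 0.18. Six5, a homeobox factor, had 508, 244, 233 and 271 counts in library order, and Kcnj8, a potassium channel subunit, had 444, 222, 220 and 302. Col3a1, a fibrillar collagen, had 17956, 8414, 9332 and 9306. The members themselves lay at 0.18 (Tnnt1) to 1.08 (Acta1) from their median, and 2267 of the 9386 genes lay closer than the median member at 0.41, so the median pattern is a common one in this table.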

How the data were processed

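Tooth germs were profiled by CAGE in 4 libraries, 1 per condition. Tags were placed on mm9 by the authors and reduced to transcription start sites using SAMtools within MOIRAI. BWA 0.5.9, mm9 and GRCh38 are listed in the submitters' processing notes, with no roles. For the annotation and the summing of tags to genes, nothing is given in the sources used here. The deposited values are raw counts for each gene (whole numbers, with no normalization by the authors).

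edgeR 4.0.16 in R 4.3.3 gave TMM factors of 1.03 and 1.02 for 37°C_DMSO and 37°C_CPA, and of 0.967 and 0.980 for 25°C_DMSO and 25°C_CPA. Fold intervals are exact for the binomial split of the counts, and a count of 0 was set to 3. The ratio of CPA folds has a normal interval from the 4 counts. Calculations used Python 3.11.15 and SciPy 1.17.1 and were tested on simulated counts. Positions are from GENCODE vM1 on mm9, and 14333 of the 15887 identifiers matched.

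The members and lists were chosen with earlier results of these data known. Named were the 10 members, up to 2 highest and 2 lowest of each wider list, some regulators, and the 10 genes of closest pattern with at least 200 counts. Alternatives were other scalings (none, DESeq2 1.42.0 size factors, Gapdh), other minimum counts, 10 added counts and a call by interval. A gene of the lists is not reported here.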

Additional observations from a re-analysis of the deposited data

Results flagged for a closer look

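For 5 members the CPA fold lay on opposite sides of 1 at 37 and 25 °C, with a counting interval below 1 at 37 °C and above 1 at 25 °C. The CPA fold at 25 °C over that at 37 °C was 5.21 for Myog, 5.09 for Tnnc2, 3.72 for Acta1, 2.40 for Myl1 and 2.35 for Mylpf. The difference was not tested, since each condition has 1 library. Acta1 and Tnnc2 had only 22 and 21 counts in 25°C_DMSO. The share of all genes that meet the same rule is not given here, so the count of 5 is no result about the members. For the ratio of folds alone, 21% of all genes had an interval above 1 and 20.1% had one below 1.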

How the results depend on the processing

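No paired analysis was possible because each condition has 1 library. No replicate could be left out for the same reason. All 10 members were below 37°C_DMSO in 37°C_CPA under each scaling, and 4 to 7 were called lower under every alternative but the minimum of 200 counts, with which 3 were. That minimum also left 2 members lower in 25°C_DMSO over 37°C_DMSO (5 with a minimum of 50), 0 higher with CPA at 25 °C (2 with 50), and 1 higher and 0 lower in 25°C_CPA over 37°C_CPA (3 and 1 with 50), since fewer genes are then tested. With CPA at 25 °C, 1 member was higher with 10 counts added and 0 where the interval had to lie beyond 2-fold. In 25°C_CPA over 37°C_CPA, 2 members were lower with no minimum, as Tnnt3 then enters, and 6 were higher with Gapdh scaling. Of the wider muscle lists, 5 genes instead of 3 were lower without scaling in 25°C_DMSO over 37°C_DMSO, and with Gapdh scaling 2 instead of 1 were higher there, 1 instead of 0 with CPA at 25 °C and 7 instead of 4 in 25°C_CPA over 37°C_CPA. Gapdh itself rests on 117 to 215 counts, and the cause of its different scale was not tested. Without Mylpf, the most abundant member, the summed levels were 109.5, 43.4, 46.1 and 61.2 CPM in library order. Of the 40 folds of single members, 14 moved out of their counting interval with Gapdh scaling and 0 with the other scalings or with 10 counts added, and no called fold changed direction. The ratio of CPA folds had an interval above 1 for all 10 members under each scaling and with 10 counts added, alternatives chosen after seeing the data. Over all genes, 250 were higher and 331 lower with CPA at 37 °C without scaling, against 318 and 212 with TMM. For 25°C_DMSO over 37°C_DMSO these numbers were 551 and 2124 without scaling and 2393 and 922 with Gapdh scaling, against 865 and 1556. With Gapdh scaling they were 52 and 6 with CPA at 25 °C, against 18 and 15, and 3727 and 635 for 25°C_CPA over 37°C_CPA, against 841 and 1456.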
